A study of Mus musculus with 6 samples.

Results

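The Kruppel-like factor family was followed in mouse splenic CD4+ T cells, as 10 genes chosen by symbol (*Klf2*, *Klf3*, *Klf4*, *Klf6*, *Klf7*, *Klf9*, *Klf10*, *Klf11*, *Klf12* and *Klf13*) out of 35602 genes in the count table. Wild-type cells, as their labels give for replicates 2 and 3, were stimulated through CD3 and CD28 and cultured with a MAPK13 inhibitor, labelled MAPK13-IN-1, or with its solvent DMSO, and were collected for RNA-seq after 72 h. There were 3 libraries for each treatment, and both treatments shared the stimulation. For replicates 2 and 3 the labels add the inhibitor at 17.1 μM from day 1. The study describes the same concentration for its RNA-seq without naming replicates, and has the inhibitor present throughout the stimulation, so the time of exposure is uncertain. The labels of replicate 1 give neither a genotype nor a dose, and its libraries came from a stranded mRNA kit, whereas those of replicates 2 and 3 came from mRNA captured on poly-T beads. The comparison asks which of these transcription factor genes were expressed differently when the kinase Mapk13, which the study examines together with the stemness factor Tcf1 (gene *Tcf7*), was inhibited.

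Kruppel-like factors bind GC-rich and CACCC-containing DNA through zinc fingers at the C-terminal end and differ in the rest of the protein, which recruits either activators or repressors of transcription. *Klf2* and *Klf4* are known for holding T lymphocytes in a resting state, and *Klf2* also for driving the receptors that let naive T cells leave and enter lymphoid organs. *Klf3* and *Klf12* encode repressors that bind the corepressor CtBP, while *Klf9*, *Klf10*, *Klf11* and *Klf13* encode proteins that bind the corepressor SIN3A. *Klf2*, *Klf4*, *Klf6* and *Klf7* are usually placed in a group of activators.

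The count table held replicates 2 and 3, whose totals were 26874805 and 28487403 counts after DMSO, and 33854760 and 32617702 counts after MAPK13-inhibitors. The replicate 1 pair was deposited as values that were read as FPKM (fragments scaled by gene length and library size) from their distribution, and the depth of these libraries is unknown. Levels in the count table are given as CPM, counts scaled to a common library size after TMM normalization, and 3 counts corresponded to between 0.0845 and 0.116 CPM. Such a floor covers counting error only. The pair of replicate 1 has no replicate check and enters no test. Nothing in the labels says whether replicates came from separate animals or cultures, so p-values measure only the spread between these libraries.

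The label of CD4+ T cells was checked against marker genes before the family was examined. The study's methods take these cells from the spleen with a CD4 T cell isolation kit, a step meant to remove B cells. In replicates 2 and 3, B cell transcripts were abundant beside those of T cells. The summed CPM of 6 CD4 T cell markers was 1317 and 1332 in DMSO and 755 and 864 with MAPK13-inhibitors, and that of 7 B cell markers was 695 and 679 in DMSO and 906 and 897 with MAPK13-inhibitors. *Cd4* itself, chosen after its values were seen, was at 275 and 276 CPM in DMSO and 267 and 283 CPM with MAPK13-inhibitors. The replicate 1 libraries stood apart, with 842 and 794 summed FPKM for the T cell markers and 38.3 and 25.7 for the B cell markers, in DMSO and MAPK13-inhibitors. The count table libraries thus hold B cell transcripts that the label does not name, and the values of the 10 members in them are set beside those of the replicate 1 pair. In RNA from whole cultures, fewer cells of a type and less RNA per cell cannot be told apart.

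Of the 10 family members, 4 were higher and 3 were lower in MAPK13-inhibitors-treated cells of replicates 2 and 3 (edgeR adjusted p under 0.05), where 63.8% of all 16269 genes tested were called, 31.5% higher and 32.3% lower. The count of 7 of 10 is close to that background. *Klf3*, *Klf4*, *Klf10* and *Klf12* were called and higher by over 1 on the log2 scale, as 13.0% of genes tested were, and *Klf9* was called and lower by over 1, as 10.4% of genes were. The calls of *Klf6* and *Klf13* were of small size and were lost under scaling by library totals, which moved the median log2 fold change of all genes by 0.13 relative to TMM and turned *Klf7* from -0.02 to 0.11. The median log2 fold change of the members was 0.04, beside 0.01 over all genes tested. All 10 members passed the filter on low counts.

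**Figure D1:**
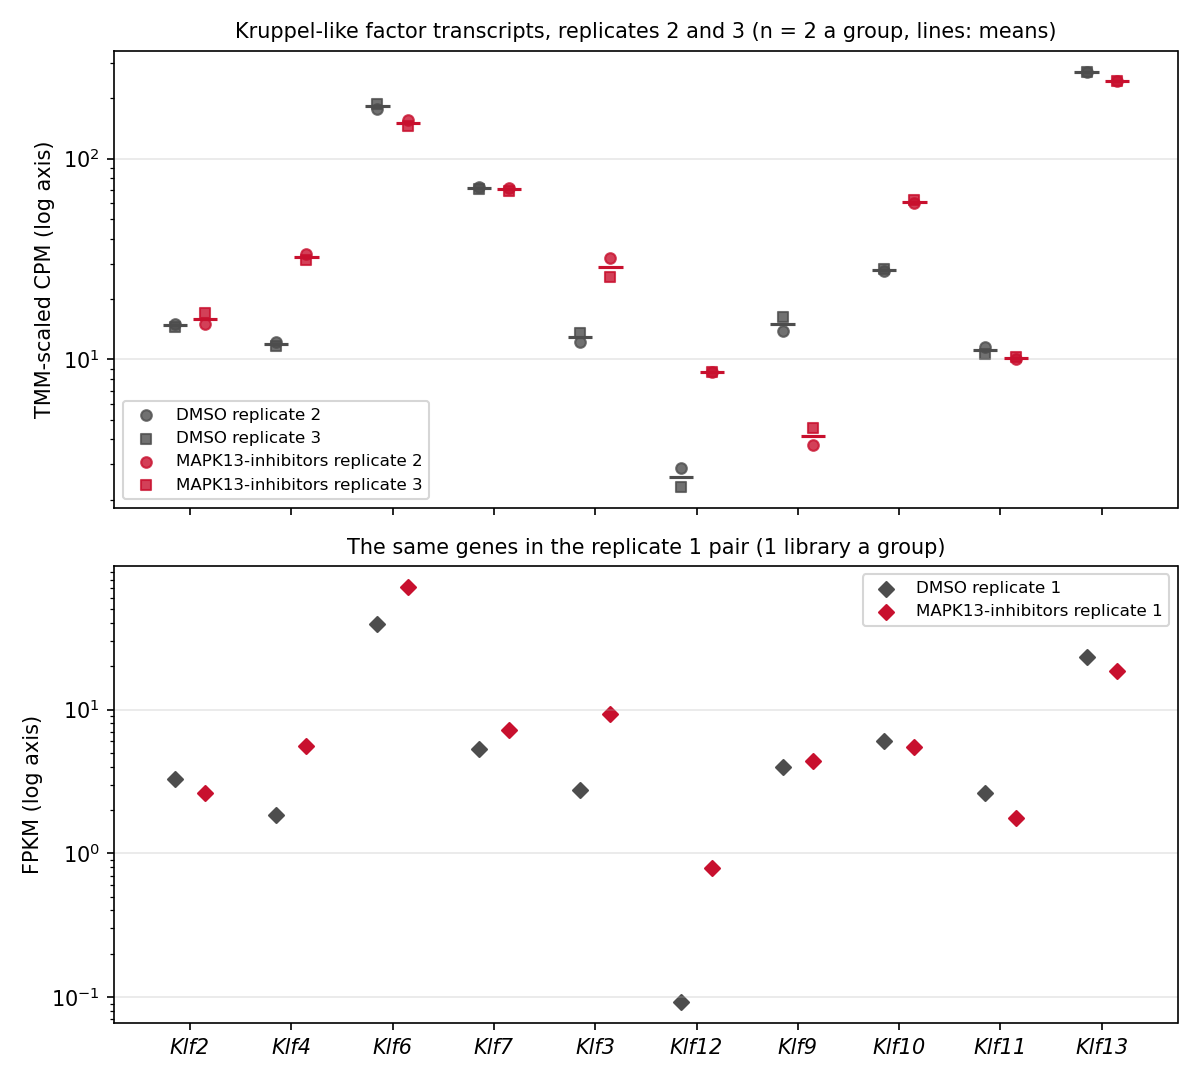
Level of each of the 10 genes in every library, as TMM-scaled CPM in replicates 2 and 3 (upper panel, log axis, points are libraries, lines are means, n = 2) and as FPKM in the replicate 1 pair (lower panel, log axis). The MAPK13-inhibitors libraries of *Klf4* lie at 33.6 and 31.2 CPM, above 12.3 and 11.6 CPM in DMSO, and those of *Klf9* at 3.75 and 4.57 CPM, below 13.9 and 16.2 CPM in DMSO.

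Compared per length, as CPM per kilobase of merged exon sequence, *Klf6* and *Klf13* had the highest levels of the 10 genes in both treatments. *Klf6* stood at 41.4 ± 1.5 (SD, n = 2) CPM per kilobase in DMSO-treated and 34.4 ± 1.7 in MAPK13-inhibitors-treated cells, and *Klf13* at 35.9 ± 0.039 and 32.5 ± 0.069. These genes together made up 68.7% and 69.5% of the summed per-length level of the 10 genes in the DMSO libraries and 58.0% and 56.9% in the MAPK13-inhibitors libraries. In the replicate 1 pair they made up 70.7% of the summed FPKM of the 10 genes in DMSO and 70.8% with MAPK13-inhibitors, so the lower share of replicates 2 and 3 was not seen there, and the difference was not tested.

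In DMSO-treated cells the order among the 10 genes after *Klf6* and *Klf13* was *Klf7* (8.75 CPM per kilobase), *Klf2* (8.02), *Klf10* (6.67), *Klf4* (3.92), *Klf9* (3.13), *Klf11* (2.56), *Klf3* (1.15) and *Klf12* (0.371), and no neighbours in this order had overlapping libraries. With MAPK13-inhibitors *Klf10* (14.6) and *Klf4* (10.6) followed *Klf13*, and *Klf9* (0.864) came last, below *Klf12* (1.24). There *Klf2* and *Klf7* overlapped, both at 8.64, as did *Klf3* (2.58) and *Klf11* (2.35). The order depends on the annotated exon length, for which 11243 bases were taken for *Klf3* and 1847 for *Klf2*. In replicate 1 *Klf3* stood at 2.75 FPKM in DMSO, the seventh level among the 10 genes, and at 9.25 FPKM with MAPK13-inhibitors, the third. *Klf16*, a family gene outside the 10, had 14.6 ± 1.6 and 14.05 ± 0.60 CPM per kilobase and 9.68 and 11.7 FPKM, in DMSO and MAPK13-inhibitors, and is in neither these orders nor the sums.

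Among the activator group, *Klf4* was the member with a difference past 1 on the log2 scale. *Klf4* (chr4:55527137-55532475 in GRCm38) encodes a factor that restrains lymphocyte proliferation and is also known from the reprogramming of cells to pluripotency. Its level was 12.3 and 11.6 CPM in the DMSO libraries and 33.6 and 31.2 CPM in the MAPK13-inhibitors libraries. Both treated libraries were above both controls. The log2 fold change was 1.44 ± 0.10 (SE), or 2.71-fold (edgeR adjusted p = 9.14e-07). In the replicate 1 pair *Klf4* was at 1.85 FPKM in DMSO and 5.57 FPKM with MAPK13-inhibitors, higher in the same direction.

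*Klf6* (chr13:5861489-5870393), a widely expressed early response gene, had 177 and 187 CPM in DMSO and 156 and 146 CPM with MAPK13-inhibitors. The treatments did not overlap, and the log2 fold change was -0.27 ± 0.06 (edgeR adjusted p = 0.00313), which was -0.14 and missed the threshold when libraries were scaled by their totals. In the replicate 1 pair *Klf6* went the other way, from 39.2 FPKM in DMSO to 71.4 FPKM with MAPK13-inhibitors. *Klf2* (chr8:72319062-72321654), the family member most often linked to quiescent T cells, was at 15.1 and 14.5 CPM in DMSO and 14.96 and 16.9 CPM with MAPK13-inhibitors. These libraries overlapped, and the log2 fold change of 0.11 had a 95% interval of -0.14 to 0.36 (edgeR adjusted p = 0.421). For *Klf2* the log2 fold change ranged from 0.0087 to 0.19 over left-out libraries and was 0.23 with library totals. In replicate 1 its values were 3.30 and 2.62 FPKM. *Klf7* (chr1:64029448-64122345), best known in neurons, was at 71.9 and 70.4 CPM in DMSO and 71.3 and 69.1 CPM with MAPK13-inhibitors, with a log2 fold change of -0.02 and a 95% interval of -0.16 to 0.13 under TMM scaling. Its direction turned under library totals, under upper-quartile scaling and with at least 10 counts required in every library. In replicate 1 *Klf7* was at 5.29 and 7.19 FPKM. A total of 3196 bases of its exons overlap a noncoding gene on the opposite strand, and without a stated strand setting in the counting the reads of both cannot be told apart.

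Both members of the CtBP-binding group were called higher in MAPK13-inhibitors-treated cells of replicates 2 and 3, beside 31.5% of all genes tested. A group of 2 genes is too small to set against that share. *Klf3* (chr5:64803521-64832901), whose product represses genes in blood and fat cells and in B cell maturation, was at 12.2 and 13.6 CPM in DMSO and at 32.2 and 25.7 CPM with MAPK13-inhibitors. The treated libraries differed from each other by more than the controls did, and both lay above them. The log2 fold change was 1.17 ± 0.13, or 2.25-fold (edgeR adjusted p = 2.05e-05), and it was 0.996, no longer over 1, without MAPK13-inhibitors replicate 2. The gene shares 404 exon bases with a transcript on the opposite strand. *Klf12* (chr14:99866181-100285891), which encodes a repressor first described at the gene of the transcription factor AP-2 alpha, was the member of lowest level in DMSO. It had 2.87 and 2.32 CPM in DMSO and 8.65 and 8.68 CPM with MAPK13-inhibitors, again without overlap. Its log2 fold change was 1.74 ± 0.17, or 3.34-fold (edgeR adjusted p = 1.06e-05). The replicate 1 pair was in the same direction for both genes, with 2.75 and 9.25 FPKM for *Klf3* and 0.0921 and 0.790 FPKM for *Klf12*. The size for *Klf12* depends on the pseudocount, with a log2 ratio of 0.71 after adding 1 and of 2.21 after adding 0.1.

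The SIN3A-binding group held members that differed in opposite directions. *Klf10* (chr15:38291464-38300711), known as an early gene induced by TGF-beta that acts in T cell activation and regulatory T cells, was at 27.4 and 28.4 CPM in DMSO and at 59.8 and 62.4 CPM with MAPK13-inhibitors. Its libraries did not overlap between treatments, and the log2 fold change was 1.13 ± 0.08, or 2.19-fold (edgeR adjusted p = 7.90e-07). The replicate 1 pair gave 6.002 FPKM in DMSO and 5.46 FPKM with MAPK13-inhibitors, slightly lower instead. *Klf9* (chr19:23141226-23168129), a gene induced by glucocorticoids and thyroid hormone in many tissues, was at 13.9 and 16.2 CPM in DMSO and at 3.75 and 4.57 CPM with MAPK13-inhibitors. Both treated libraries were below both controls. The log2 fold change was -1.86 ± 0.15, a level 3.62-fold higher in DMSO (edgeR adjusted p = 2.88e-06). In replicate 1 *Klf9* was at 4.01 FPKM in DMSO and 4.40 FPKM with MAPK13-inhibitors.

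*Klf13* (chr7:63886351-63938915), whose product drives the chemokine gene *Ccl5* in activated T cells, had 270.1 and 271 CPM in DMSO and 245 and 244 CPM with MAPK13-inhibitors. Replicates of a treatment lay close together and treatments did not overlap, with a log2 fold change of -0.15 ± 0.05 (edgeR adjusted p = 0.0294). That call was lost without DMSO replicate 2 (log2 fold change -0.16) and without DMSO replicate 3 (-0.15), and the log2 fold change was -0.02 with library totals. The replicate 1 pair gave 23.4 FPKM in DMSO and 18.5 FPKM with MAPK13-inhibitors. *Klf11* (chr12:24651371-24662782), a close relative of *Klf10* that is likewise induced by TGF-beta, was at 11.6 and 10.6 CPM in DMSO and 10.0 and 10.3 CPM with MAPK13-inhibitors. These libraries did not overlap between treatments either, though *Klf11* was not called. The share of all genes without overlap was not computed. The log2 fold change of *Klf11*, -0.13, had a 95% interval of -0.40 to 0.14 (edgeR adjusted p = 0.386). That value ranged from -0.20 to -0.075 over left-out libraries and was -0.00068 with library totals. In replicate 1 *Klf11* was at 2.64 and 1.77 FPKM.

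**Figure D2:**
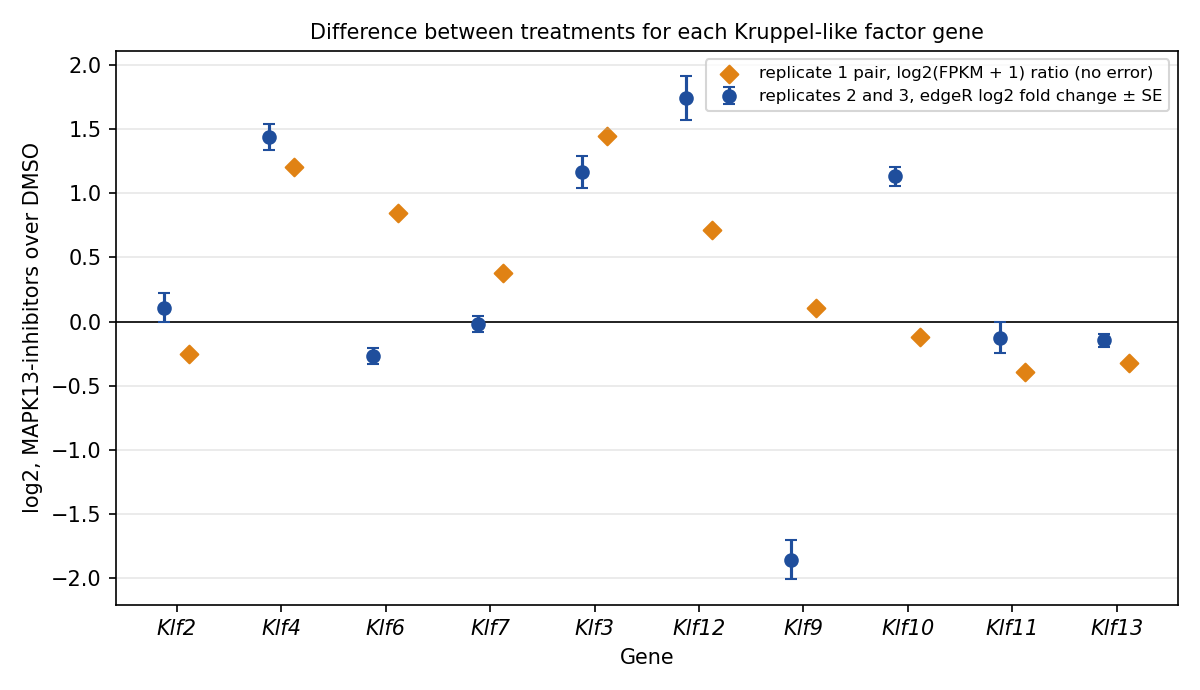
Log2 difference of each gene, MAPK13-inhibitors over DMSO, as the edgeR log2 fold change of replicates 2 and 3 (circles, bars are the SE) and as the log2(FPKM + 1) ratio of the replicate 1 pair (diamonds, 1 library a treatment, no error). *Klf3*, *Klf4* and *Klf12* are above 0 and *Klf11* and *Klf13* below 0 by both measures, while *Klf6*, *Klf9* and *Klf10*, which were called, and *Klf2* and *Klf7*, which were not, are on opposite sides of 0, for *Klf7* under TMM with the main filter but not under library totals, upper-quartile scaling or a filter of at least 10 counts in every library.

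In the replicate 1 pair, 2 of 10 members had a log2(FPKM + 1) ratio over 1, *Klf3* at 1.45 and *Klf4* at 1.20, beside 3.73% of the 21936 genes above 0 in either library. Of these genes 10448 were at least 1 FPKM in both libraries, as 9 of the 10 members were. A gene under 1 FPKM in both libraries cannot pass 1 in this ratio, so the shares are not like for like. The share over genes of at least 1 FPKM was not computed. No member was under -1, as 1.00% of genes were. Of the 10 members 6 were higher and 4 were lower in this pair, where 62.3% of genes above 0 were higher. The median ratio of the members was 0.24 beside 0.04 over these genes. Among genes of at least 1 FPKM in both libraries, it was 0.11 for 9 members beside 0.05 over all such genes. Of the 7 members called in replicates 2 and 3, 4 had the same direction in replicate 1 (*Klf3*, *Klf4*, *Klf12* and *Klf13*), while 65.9% of all 10193 called genes with a replicate 1 value did. The kit and the level of B cell transcripts differed between the pair and the other replicates, the labels give no dose for the pair, and their part in these differences was not tested.

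Apart from *Klf16*, the other family gene of highest level per length was *Klf1*, at 1.21 CPM per kilobase in DMSO and 1.43 with MAPK13-inhibitors. These levels were above those of the member *Klf12*, at 0.371 and 1.24. Of 7 further Kruppel-like factor genes 4 passed the filter on low counts, of which 1 was higher and 1 lower, beside 31.5% of all genes tested higher and 32.3% lower. With at least 10 counts required in every library 1 was called, since *Klf5* did not pass that filter. *Klf8*, a relative of *Klf3* and *Klf12* that also binds CtBP, was at 2.02 and 2.21 CPM in DMSO and at 5.18 and 4.34 CPM with MAPK13-inhibitors, with a log2 fold change of 1.17 ± 0.21 (edgeR adjusted p = 0.000574). Its replicate 1 values were 0.505 and 1.01 FPKM. *Klf5*, a growth-promoting factor of epithelia, was lower, at 0.892 and 1.03 CPM in DMSO against 0.225 and 0.0885 CPM (edgeR adjusted p = 0.00124), on only 8 and 3 counts in the treated libraries. Its log2 fold change of -2.57 was -3.38 without MAPK13-inhibitors replicate 2, and in replicate 1 it was at 0.190 and 0.383 FPKM. *Klf16* had 39.2 ± 4.3 and 37.6 ± 1.6 CPM and *Klf1*, the erythroid factor, 1.84 ± 0.30 and 2.19 ± 0.031 CPM in DMSO and MAPK13-inhibitors, and neither passed the test. *Klf14* and *Klf15* had at most 6 counts in a library and *Klf17* had 0 counts in all 4.

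The SP factors are the nearest relatives of the family and bind the same kind of GC-rich sites. Of 9 SP genes 6 were tested, 2 were higher and 1 was lower, beside 63.8% of all genes called. *Sp3* rose from 82.4 ± 4.0 to 110.1 ± 7.4 CPM (log2 fold change 0.42 ± 0.07, edgeR adjusted p = 0.000438), and *Sp2* fell from 48.2 ± 1.1 to 31.6 ± 4.5 CPM (edgeR adjusted p = 0.000338). In replicate 1 they were at 26.2 and 28.5 FPKM for *Sp3* and 12.7 and 7.83 FPKM for *Sp2*. *Sp6* was at 0.504 and 2.21 CPM in DMSO and 8.57 and 5.64 CPM with MAPK13-inhibitors, with a log2 fold change of 2.37 ± 0.42 (edgeR adjusted p = 0.000599) that became 3.80 without DMSO replicate 3 and 1.67 without DMSO replicate 2. Its replicate 1 values were 0.123 and 4.15 FPKM. *Sp1* and *Sp4*, with log2 fold changes of -0.08 and -0.12 that turned positive with library totals, and *Sp9*, at -0.72, did not pass the test. *Sp9* passed it without MAPK13-inhibitors replicate 3, at -1.31, and was at -0.30 without MAPK13-inhibitors replicate 2.

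Corepressors and coactivators through which these factors act were examined next. Of 10 cofactor genes 3 were higher and 6 lower, beside 63.8% of all genes called, and their median log2 fold change was -0.19. The split depended on the scaling and on 1 library, with 3 higher and 3 lower under library totals, 3 higher and 4 lower under upper-quartile scaling, and 2 higher and 4 lower without DMSO replicate 3. *Ctbp1*, the partner of *Klf3*, *Klf8* and *Klf12*, fell from 228 ± 1.3 to 163 ± 1.8 CPM (log2 fold change -0.48 ± 0.05, edgeR adjusted p = 2.42e-05). It was also lower in replicate 1, at 88.0 and 59.9 FPKM. *Sin3b*, a scaffold of the SIN3 corepressor complex, rose from 136 ± 0.80 to 196 ± 7.4 CPM (edgeR adjusted p = 2.11e-05), with 81.1 and 96.8 FPKM in replicate 1. The acetyltransferase genes *Crebbp* and *Ep300* went apart, with log2 fold changes of 0.55 ± 0.07 and -0.30 ± 0.06. Neither direction was seen in replicate 1, with 7.92 and 7.91 FPKM for *Crebbp* and 16.8 and 17.6 FPKM for *Ep300*.

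Of 6 homing and quiescence genes linked to KLF2, 3 were higher and 3 were not called, beside 63.8% of all genes called, and *Klf2* itself was not called either. The cell cycle inhibitor gene *Cdkn1b* had a log2 fold change of 0.37 ± 0.07 (edgeR adjusted p = 0.000893). The interleukin 7 receptor gene *Il7r* at 0.40 ± 0.08 and the chemokine receptor gene *Ccr7* at 0.21 ± 0.06 were called as well, and both calls were lost without DMSO replicate 2, at 0.28 and 0.19. *Ccr7* was also at 0.12 without MAPK13-inhibitors replicate 3. In replicate 1 *Ccr7* was at 116 and 294 FPKM, *Il7r* at 17.1 and 21.4 FPKM and *Cdkn1b* at 24.3 and 25.4 FPKM. *Cdkn1a*, another cell cycle inhibitor gene, was at 679 and 653 CPM in DMSO and 541 and 642 CPM with MAPK13-inhibitors, a log2 fold change of -0.17 ± 0.07 that missed the threshold (edgeR adjusted p = 0.0602) and passed it without DMSO replicate 3, at -0.21, or without MAPK13-inhibitors replicate 3, at -0.31. It was -0.053 without MAPK13-inhibitors replicate 2. In replicate 1 *Cdkn1a* was at 117 and 358 FPKM, the opposite direction.

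Among 17 genes known to act upstream of the family, 8 were higher and 3 were lower, with a median log2 fold change of 0.21. The share called was close to the 63.8% of all genes, of which 31.5% were higher and 32.3% lower. Under library totals or upper-quartile scaling 11 of the 17 were higher and 2 lower. Among all genes called, the share that was higher also grew, from 49.4% in the main fit to 58.9% under library totals and 55.7% under upper-quartile scaling. *Smad7*, the inhibitory SMAD of TGF-beta signalling, rose from 45.8 ± 0.042 to 171 ± 2.9 CPM (log2 fold change 1.90 ± 0.06, edgeR adjusted p = 1.28e-08). *Tgfbr2*, which encodes a TGF-beta receptor chain, rose from 127 ± 1.2 to 236 ± 9.5 CPM, whereas the ligand gene *Tgfb1* fell from 214 ± 12 to 100.04 ± 7.4 CPM. *Foxo3*, encoding a forkhead factor of resting lymphocytes, had a log2 fold change of 0.65 ± 0.05. In replicate 1 these genes were in the same directions, with 4.74 and 8.95 FPKM for *Smad7*, 18.7 and 22.4 for *Tgfbr2*, 91.9 and 72.8 for *Tgfb1* and 12.4 and 21.8 for *Foxo3*. Of 4 glucocorticoid response genes, which *Klf9* is often listed with, 3 were higher and 1 was lower, beside 31.5% and 32.3% of all genes tested, and 2 were higher and 1 lower without DMSO replicate 3. *Tsc22d3* rose from 48.8 ± 1.9 to 135 ± 7.4 CPM and *Fkbp5* fell from 61.0 ± 2.3 to 35.1 ± 0.44 CPM, while the receptor gene *Nr3c1* had a log2 fold change of 0.29 ± 0.06 and *Per1* of 0.21 ± 0.07, a call that *Per1* lost without DMSO replicate 3 at 0.10. In replicate 1 *Tsc22d3* was not higher, at 11.2 and 10.8 FPKM, while *Fkbp5* was at 17.9 and 16.6, *Nr3c1* at 13.7 and 18.2 and *Per1* at 7.03 and 8.74 FPKM.

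The inhibited kinase and the stemness factors were examined beside the family. *Mapk13* itself was at 3.06 and 2.72 CPM in DMSO and 0.592 and 1.51 CPM with MAPK13-inhibitors, a log2 fold change of -1.47 ± 0.36 (edgeR adjusted p = 0.0049) that was -2.29 without MAPK13-inhibitors replicate 3 and -0.94 without MAPK13-inhibitors replicate 2. In replicate 1 it was at 0.191 and 3.28 FPKM, the opposite direction. *Tcf7* was at 158 and 164 CPM in DMSO and 179.8 and 215 CPM with MAPK13-inhibitors, a log2 fold change of 0.29 ± 0.08 (edgeR adjusted p = 0.00855) that was 0.15 without MAPK13-inhibitors replicate 3. In replicate 1 *Tcf7* was at 59.4 and 73.5 FPKM. *Lef1* fell from 150.04 ± 5.9 to 79.7 ± 0.69 CPM (edgeR adjusted p = 7.34e-07), and had 44.0 and 47.7 FPKM in replicate 1.

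Markers of other cells differed between the treatments in replicates 2 and 3 alongside the family, and their part in the results was not tested. Their counts stand beside 31.5% of all genes tested called higher and 32.3% called lower. Of the 6 CD4 T cell markers measured, 5 were lower, with a median log2 fold change of -0.998 over the list. The most abundant over the 4 libraries together, though not with MAPK13-inhibitors alone, was *Cd5* at 432 ± 9.5 CPM in DMSO and 177 ± 33 CPM with MAPK13-inhibitors. Of 7 B cell markers 6 were higher and 1 lower, with a median of 0.62, and 4 were higher when either DMSO library was left out. The most abundant over the 4 libraries, though not in DMSO alone, was *Pax5* at 173 ± 6.6 and 267 ± 5.6 CPM. In replicate 1 all 7 B cell markers were lower with MAPK13-inhibitors. Of 7 erythroid markers, among them the family gene *Klf1*, 5 of 6 tested were higher, and *Klf1* was not called. Their summed levels were 7.83 and 7.43 CPM in DMSO and 89.7 and 64.2 CPM with MAPK13-inhibitors, led by *Hbb-bs*. In replicate 1 they summed to 0.928 and 1.93 FPKM.

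Against the same background of 31.5% of genes higher and 32.3% lower, 5 of 6 macrophage markers tested of 8 were higher, with summed levels of 3.26 and 2.72 CPM in DMSO and 14.2 and 10.3 CPM with MAPK13-inhibitors, led by *Lyz2* over the 4 libraries together but not in DMSO. In replicate 1 all 8 were higher, summing to 0.284 and 1.85 FPKM. All 3 dendritic cell markers tested of 4 were higher, from 3.84 and 4.38 CPM to 13.1 and 12.2 CPM in sum, led by *Flt3*, and in replicate 1 the 4 markers summed to 1.42 and 5.81 FPKM. Both CD8 T cell markers were lower, from 11.7 and 10.9 CPM to 5.49 and 7.85 CPM in sum, led by *Cd8b1*, whose log2 fold change of -0.60 was -0.38 without MAPK13-inhibitors replicate 2 and missed the threshold with DESeq2 (-0.59). In replicate 1 both were higher instead, from 3.49 to 8.39 FPKM in sum. Of 3 endothelial markers 1 of 2 tested was higher (2 of 3 without DMSO replicate 3), from 40.0 and 37.4 CPM to 76.3 and 71.2 CPM in sum, nearly all of it *Pecam1*, which lymphocytes also express and which was lower in replicate 1, where the sum went from 7.78 to 5.93 FPKM. Neutrophil markers summed to at most 0.915 CPM in a library, with 1 of 6 tested, *Mpo*, called higher by edgeR but not by DESeq2 (log2 fold change 2.66), and *S100a9* at 0 in all 4 libraries. NK cell markers, led by *Klrb1c*, summed to at most 0.507 CPM with none of 3 tested. Fibroblast markers, led by *Col1a1*, summed to at most 2.60 CPM with *Col3a1* at 0 and 1 of 3 tested, which was not called. In replicate 1 the neutrophil markers summed to 0.737 and 0.455 FPKM, the NK cell markers to 0.0909 and 0.173 FPKM and the fibroblast markers to 0.110 and 0.548 FPKM.

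The sequences upstream of the members that differed most are shown because the family itself binds CACCC and GC-rich letters. RefSeq promoters of GRCm38.p6 were present for 9 of the 10 members and missing for *Klf10*, and the 250 bases before the start were searched on both strands for the letters CACCC, for the letters GGGCGG and for the forkhead letters GTAAACA, where neighbouring matches can share bases. CACCC was found in 6 of 9 members and in 52% of 32851 promoters, GGGCGG in 7 of 9 members and in 32.7% of promoters, and GTAAACA in 1 of 9 members, *Klf9*, and in 3.17% of promoters. The member windows were rich in GC, from 59.2% in *Klf7* to 78.4% in *Klf3*, except *Klf12* at 48%, beside a median of 52.4%. The shares of promoters were not matched for GC, so they are no like background for GC-rich letters. *Klf3* had 5 matches to CACCC, where 6.92% of promoters had 3 or more, and 6 to GGGCGG in a window of 78.4% GC, beside a median of 52.4%. *Klf4* had 4 matches to GGGCGG and none to CACCC, *Klf12* had 1 to CACCC, and *Klf9* had 1 to CACCC and 1 to GTAAACA. A match is a description of letters only. The *Klf12* window lies before the start listed in the promoter table, inside the gene's annotated span. The windows are printed 5′ to 3′ on the gene's strand, with the matched letters of any of these motifs in capitals, for *Klf3* (chr5:64803271-64803520, plus strand), *Klf4* (chr4:55532476-55532725, minus strand), *Klf9* (chr19:23140976-23141225, plus strand) and *Klf12* (chr14:100149797-100150046, minus strand).
Klf3: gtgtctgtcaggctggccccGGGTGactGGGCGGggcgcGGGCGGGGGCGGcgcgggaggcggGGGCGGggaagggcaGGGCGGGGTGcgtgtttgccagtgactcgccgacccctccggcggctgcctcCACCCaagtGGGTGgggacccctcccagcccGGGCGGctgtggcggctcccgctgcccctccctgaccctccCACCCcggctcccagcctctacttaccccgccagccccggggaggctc
Klf4: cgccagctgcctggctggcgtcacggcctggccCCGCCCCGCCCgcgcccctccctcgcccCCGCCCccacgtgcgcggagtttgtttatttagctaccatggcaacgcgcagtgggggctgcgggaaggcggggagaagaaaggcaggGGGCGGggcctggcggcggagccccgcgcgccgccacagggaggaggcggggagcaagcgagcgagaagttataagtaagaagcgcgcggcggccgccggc
Klf9: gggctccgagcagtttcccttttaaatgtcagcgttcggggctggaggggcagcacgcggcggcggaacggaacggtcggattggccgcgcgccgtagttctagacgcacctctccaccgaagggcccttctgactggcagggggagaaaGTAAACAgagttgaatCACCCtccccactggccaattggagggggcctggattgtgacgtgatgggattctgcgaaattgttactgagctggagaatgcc
Klf12: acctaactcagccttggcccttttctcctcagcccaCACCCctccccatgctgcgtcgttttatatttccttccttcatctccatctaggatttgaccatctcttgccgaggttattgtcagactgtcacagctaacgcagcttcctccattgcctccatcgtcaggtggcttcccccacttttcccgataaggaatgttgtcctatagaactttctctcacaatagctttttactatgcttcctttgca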

How the data were processed

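RNA-seq of 6 libraries was used. Per the labels, the authors processed replicates 2 and 3 with fastp 0.21.0, HISAT2 2.1.0, StringTie 2.1.5 and DESeq2 1.30.1 on mm10, and deposited whole-number counts per gene. For replicate 1 the labels name FastQC and HISAT2 with GRCm38. Its deposited values carry no unit and were taken as FPKM, since they were not whole and summed to 405150 and 390729. The program that made them, the annotation and any strand setting are not given in the sources used here. Low FPKM values showed no steps of whole reads, so depth could not be recovered.

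The counts were tested with edgeR 4.0.16 (R 4.3.3) by the quasi-likelihood test, after filterByExpr (minimum count 10) and TMM scaling, with Benjamini-Hochberg adjustment over all genes tested and a threshold of 0.05. The SE is the absolute log2 fold change over the square root of F. Intervals at 95% are this SE times the t quantile of the fit. The script was tested on simulated data. The FPKM pair was compared as log2(FPKM + 1) without a test. Gene spans are from RefSeq and exon lengths from GENCODE. Replicates of a treatment differed beyond counting noise (mean chi-square per gene 3.08 in DMSO and 9.60 in MAPK13-inhibitors), so no library was counted as a copy of another. Alternatives were RLE, upper-quartile and library total scaling, other filters, DESeq2 1.42.0, limma-voom (limma 3.58.1), the replicate block, leaving out each library, other thresholds and a pseudocount of 0.1.

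Named were all members, other KLF and SP genes with at least 10 counts in a library, at most 4 genes of smallest p of every other list, and of each marker list its most abundant gene and genes at 0. *Klf14*, *Klf15*, *Klf17* and *Cd4* were named outside this rule. Members and lists were chosen with earlier results of these data known. The marker *Trbc2* and protein sequences were not analysed here. Some listed genes are not reported here.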

Additional observations from a re-analysis of the deposited data

Results flagged for a closer look

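The sign of the log2 difference of 3 called members was not the same in the count table and the replicate 1 pair, which was not tested. *Klf6* was lower with MAPK13-inhibitors in replicates 2 and 3 (log2 fold change -0.27) and higher in replicate 1, with a log2(FPKM + 1) ratio of 0.85. *Klf9* was lower in replicates 2 and 3 (-1.86) and had a ratio of 0.11 in replicate 1. *Klf10* was higher in replicates 2 and 3 (1.13) and had a ratio of -0.12 in replicate 1. The replicate 1 ratios of *Klf9* and *Klf10* were small, where the median over genes above 0 was 0.04. They show no clear opposite change. The replicate 1 pair has 1 library in each treatment, and B cell markers summed to 38.3 and 25.7 FPKM there, so neither the kit nor the makeup of the cultures can be told apart from the replicate number.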

How the results depend on the processing

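With 2 libraries in each treatment the edgeR fit called 10374 genes, and the count was 3799 where a log2 fold change past 1 was also required. Leaving out each library gave 8731 to 10943 genes called and 6 to 7 members called, with the lone library assumed to vary like the other treatment. *Klf3*, *Klf4*, *Klf10* and *Klf12* remained higher and *Klf9* lower, each past the threshold, under every alternative of scaling, filter, tool, block and left-out library that was run. These alternatives reuse the same libraries, and replicate 1 enters none of them. The share of all genes that stayed called throughout was not computed. The log2 fold changes over left-out libraries ranged from 1.39 to 1.48 for *Klf4*, from 0.996 to 1.31 for *Klf3*, from 1.58 to 1.89 for *Klf12*, from 1.09 to 1.16 for *Klf10* and from -2.01 to -1.72 for *Klf9*. *Klf6* missed the threshold with library totals (-0.14). *Klf13* missed it with upper-quartile scaling (-0.065), library totals (-0.020), at least 10 counts in every library (-0.10), DESeq2 (-0.14) and without either DMSO library.

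The direction turned for genes that were not called. *Klf7* was 0.062 with upper-quartile scaling, 0.11 with library totals and 0.026 with at least 10 counts in every library. *Klf16* was 0.021 with upper-quartile scaling, 0.065 with library totals and between -0.18 and 0.042 over left-out libraries. *Sp1* was 0.00505 with upper-quartile scaling and 0.050 with library totals, and *Sp4* was 0.0043 with library totals. The cause was not tested beyond the shift of the scaling itself.

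Replicates 2 and 3 share only a number across treatments. With this number as a replicate block, 10645 genes and 7 members were called, and *Cdkn1a* passed the threshold at -0.18. The same gene passed it with no filter on low counts (-0.17). As a check of the pairing, the deviations of same-numbered libraries from their treatment means had a correlation of -0.0064 across genes, which are not independent replicates. The median log2(FPKM + 1) ratio of the members in replicate 1 was 0.24, 0.28 with a pseudocount of 0.1 and 0.11 over the 9 members of at least 1 FPKM in both libraries.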
